A study of Mus musculus with 13 samples.

Results

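The ribosomal RNA precursor entry Rn45s and 9 nucleolar protein genes were examined in polyadenylated RNA of nuclei and cytoplasms separated from mouse oocytes with or without the RNA helicase MTR4. The 10 genes were picked by symbol, and all 10 were found among the 23235 symbols of the deposited table. They are Rn45s; the box C/D genes Fbl, Nop56 and Nop58; the box H/ACA genes Dkc1 and Nhp2; the nucleolar phosphoprotein genes Ncl and Npm1; and the RNA polymerase I genes Polr1a and Polr1b. Each library was made from 10 nuclei or 10 cytoplasms, parted by micromanipulation, with Smart-seq2, a low-input method primed on the poly(A) tail. Per the labels there are 13 libraries: MTR4-null nuclei at day 21 (2) and MTR4-null cytoplasms at day 21 (2), then WT nuclei at day 14 (2) and at day 21 (3), and WT cytoplasms at day 14 (2) and at day 21 (2). The labels name no strain and no way in which MTR4 was removed.

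Ribosomal RNA is made in the nucleolus, where RNA polymerase I copies the ribosomal DNA into a long precursor that holds the 18S, 5.8S and 28S RNAs with spacers between and around them. Small nucleolar ribonucleoproteins (snoRNPs) modify this precursor: box C/D particles methylate riboses and box H/ACA particles turn uridines into pseudouridines. Nucleases and assembly factors then cut and fold it into the ribosomal subunits. MTR4 unwinds RNA for the nuclear exosome, the complex that trims the 5.8S precursor and degrades cut-out spacers and faulty precursors, and the exosome's cofactors can mark such RNA with short A tails. Growing oocytes have large active nucleoli and store ribosomes for the early embryo. The precursor normally carries no poly(A) tail, so the Rn45s values cover RNA captured as polyadenylated and not the bulk of the precursor.

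The table gives 1 value per gene for each genotype and compartment, so no difference here has a spread between libraries, a test or a p-value. It is not known whether the WT columns hold day 14 libraries, day 21 libraries or both, so that genotype and age cannot be told apart. Values are FPKM by the table's name, per transcript length, but column totals span 11.2-fold, with 1396110 in the null nucleus, 594034 in the WT nucleus, 3007240 in the null cytoplasm and 6637350 in the WT cytoplasm. A pair of scales was therefore used. Deposited differences compare the values as they stand. Relative differences compare them after each column was divided by a size factor, the median over genes of its ratio to the geometric mean of the columns, so that they place a gene against the median gene. On both scales 1 was added, log2 was taken, and genes that differed 2-fold or more were counted. Of all genes, 14240 reached 1 in 2 or more columns and were kept, and all 10 members were among them with at least 2.80 in every column. Because a library held the RNA of a fixed number of oocyte parts, less RNA per cell and fewer intact cells cannot be told apart. The targeted gene, listed as Skiv2l2, had 3.54 in the null nucleus against 13.3 in the WT nucleus, with 4.36 in the null cytoplasm against 187 in the WT cytoplasm. Its relative log2 differences were -2.81 and -4.03, so the columns follow their labels. All 10 oocyte markers were above 0 in every column and summed to 1.52% of the total in the null nucleus, 1.83% in the WT nucleus, 2.44% in the null cytoplasm and 2.82% in the WT cytoplasm. The 12 granulosa cell markers summed to 0.00149%, 0.00280%, 0.00883% and 0.00665% of those totals in the same order. Foxl2, Fst and Inha were at 0 in the null nucleus and Amh and Amhr2 in the WT nucleus, while none was at 0 in a cytoplasm. The part of granulosa RNA in the differences below was not tested.

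Rn45s, the entry for the 45S precursor, took a larger share of polyadenylated RNA in both null columns. Its deposited value was 12751 in the null nucleus against 2896 in the WT nucleus, with 28371 in the null cytoplasm against 26640.1 in the WT cytoplasm. As a share of the column total, which is itself a scaling by totals, it was 0.913% in the null nucleus against 0.487% in the WT nucleus. In the cytoplasm the share was 0.943% in null against 0.401% in WT. Both null shares lay above both WT shares, and the 2 compartments of each genotype lay closer to each other than to the other genotype. The relative log2 difference was 1.05 for the nuclei and 0.997 for the cytoplasms, the second just inside the 2-fold limit. As deposited it was 2.14 for the nuclei and 0.09 for the cytoplasms. Rn45s ranked 12th in the null nucleus, 11th in the WT nucleus, 2nd in the null cytoplasm and 18th in the WT cytoplasm among the kept genes. It stood 24.1-fold above Npm1, the highest of the protein-coding members, in the null nucleus against 8.15-fold in the WT nucleus. The same ratio was 9.32 in the null cytoplasm against 6.04 in the WT cytoplasm. Rn45s is a repeated gene, and its share depends on how the authors treated reads that match many copies, a step not given in the sources used here.

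The 9 protein-coding members together took a smaller share in the null nucleus and a larger one in the null cytoplasm, the second through Npm1. They summed to 0.0741% of the total in the null nucleus against 0.107% in the WT nucleus, with 0.142% in the null cytoplasm against 0.128% in the WT cytoplasm. Without Npm1 the other 8 summed to 0.0362% in the null nucleus against 0.0473% in the WT nucleus, while the cytoplasms had 0.0403% in null against 0.0618% in WT. Npm1 was the highest of them in all 4 columns. Polr1a was the lowest in both null columns and Polr1b the lowest in both WT columns. The highest value was 89.0 times the lowest among these 9 in the null nucleus against 127 times in the WT nucleus, and 265 times in the null cytoplasm against 170 times in the WT cytoplasm. Since there is 1 value per column, neighbours in this order cannot be set against a spread.

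**Figure D1:**
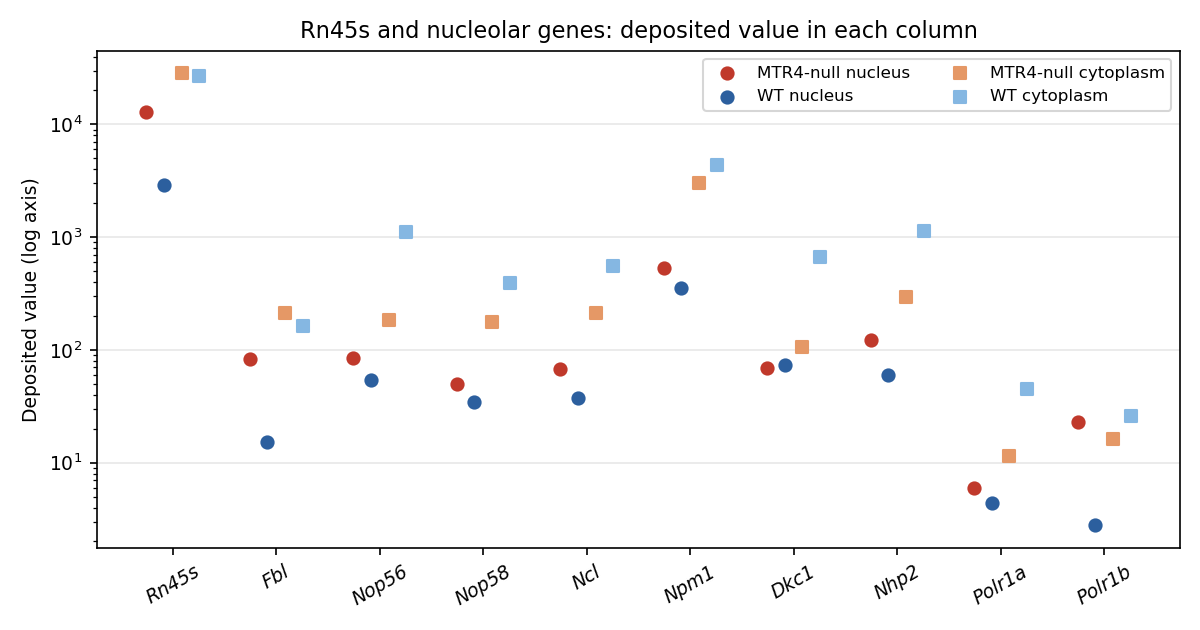
Deposited value (log axis) of Rn45s and the 9 nucleolar protein genes in the MTR4-null nucleus, WT nucleus, MTR4-null cytoplasm and WT cytoplasm, 1 point per column with no replicate. Rn45s lies far above the rest in every column. As deposited, Fbl and Polr1b differ more between genotypes in the nuclei (83.2 in null against 15.1 in WT for Fbl). Nop56, Dkc1 and Nhp2 differ more in the cytoplasms (185 in null against 1108 in WT for Nop56). Relative to the median gene, Fbl differs about alike in both compartments (log2 difference 1.35 for the nuclei and 1.26 for the cytoplasms).

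The genes of the box C/D core proteins differed in direction. Fbl (fibrillarin), the methyltransferase of the particle, had 83.2 in the null nucleus against 15.1 in the WT nucleus, with 212 in the null cytoplasm against 164 in the WT cytoplasm. Its relative log2 difference was 1.35 for the nuclei and 1.26 for the cytoplasms, against 2.38 and 0.37 as deposited. Within its own column, Fbl stood at percentile 85.9 of the kept genes in the null nucleus against 69.6 in the WT nucleus, with 83.4 in the null cytoplasm against 67.6 in the WT cytoplasm. Fbl was thus higher in null by value and by rank in both compartments. Nop56, a scaffold protein that binds the guide RNA in the same particle, had 85.1 in the null nucleus against 53.7 in the WT nucleus. In the cytoplasm it had 185 in null against 1108 in WT, a relative log2 difference of -1.67 (-2.58 as deposited). In the nucleus its relative value was -0.43 and its deposited one 0.65, so that its direction there follows the scale. Nop58, the partner scaffold of Nop56, had 50.3 in the null nucleus against 34.9 in the WT nucleus, with 176 in the null cytoplasm against 395 in the WT cytoplasm. Its relative log2 differences of -0.56 and -0.26 stayed within 2-fold, against 0.52 and -1.16 as deposited.

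Both box H/ACA genes were lower in the null cytoplasm. Dkc1 (dyskerin), the pseudouridine synthase of the particle and also a subunit of telomerase, had 69.6 in the null nucleus against 73.3 in the WT nucleus, with 106 in the null cytoplasm against 674 in the WT cytoplasm. Its relative log2 difference was -1.16 for the nuclei and -1.75 for the cytoplasms, against -0.07 and -2.66 as deposited. Dkc1 was the 1 member with a lower deposited value in the null nucleus than in the WT nucleus. By rank it stood at percentile 83.7 in the null nucleus against 90.5 in the WT nucleus, and at 70.9 in the null cytoplasm against 87.4 in the WT cytoplasm. Nhp2, a small RNA-binding core protein of the same particle, had 122 in the null nucleus against 59.3 in the WT nucleus, with 294 in the null cytoplasm against 1132 in the WT cytoplasm. The relative log2 difference of Nhp2 was -0.06 for the nuclei and -1.03 for the cytoplasms, against 1.02 and -1.94 as deposited. In the cytoplasm both passed the 2-fold limit on both scales, Nhp2 narrowly on the relative one.

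The genes of the abundant nucleolar phosphoproteins stayed within 2-fold relative to the median gene. Ncl (nucleolin), which binds the precursor and the ribosomal DNA, had 67.1 in the null nucleus against 37.4 in the WT nucleus, with 212 in the null cytoplasm against 559.9 in the WT cytoplasm. Its relative log2 differences were -0.25 for the nuclei and -0.49 for the cytoplasms (0.83 and -1.39 as deposited). Npm1 (nucleophosmin), a histone and ribosomal protein chaperone, had 529 in the null nucleus against 355 in the WT nucleus, with 3044 in the null cytoplasm against 4409 in the WT cytoplasm. Its relative differences had opposite signs, -0.52 for the nuclei and 0.37 for the cytoplasms, and as deposited both signs were the other way (0.57 and -0.53). Npm1 can share reads with processed pseudogene copies, so its level is uncertain.

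The 2 largest RNA polymerase I subunit genes differed in direction in the nucleus on the relative scale, while as deposited both were higher in null there. Polr1b, the second-largest subunit, had 22.9 in the null nucleus against 2.80 in the WT nucleus, with 16.3 in the null cytoplasm against 25.9 in the WT cytoplasm. Its relative log2 difference was 1.84 in the nucleus, the highest of the 10 members, and 0.22 in the cytoplasm (2.65 and -0.63 as deposited). Polr1a, the largest subunit, which holds part of the active site, had 5.94 in the null nucleus against 4.36 in the WT nucleus, with 11.5 in the null cytoplasm against 45.3 in the WT cytoplasm. Its relative differences were -0.60 for the nuclei and -0.97 for the cytoplasms (0.37 and -1.89 as deposited). By rank Polr1b was 22.6 percentile points higher in the null nucleus than in the WT nucleus, while Polr1a stood at percentile 33.5 in the null nucleus against 47.4 in the WT nucleus. Both have low values, where the added 1 understates a difference.

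Counted over the members, 3 of 10 exceeded the WT nucleus 2-fold or more in the null nucleus on the relative scale (Rn45s, Fbl and Polr1b) and 1 was lower by as much (Dkc1), beside 25.8% higher and 16.2% lower of all kept genes. The member median was -0.34 and that of all kept genes 0.06. As deposited 4 were higher and 0 lower, beside 46.3% and 3.69% of all kept genes. With column factors read from the digits of the values divided out, 0 were higher and 6 lower, beside 15.4% and 43.2%, so that the nuclear balance of the members follows the scaling as that of all genes does. In the cytoplasm 1 of 10 was higher (Fbl) and 3 were lower (Nop56, Dkc1 and Nhp2), beside 24.2% and 18.6%. The member median there was -0.37 and that of all kept genes 0.06. As deposited 0 were higher and 6 lower, beside 14.9% and 43.7%. With the digit factors 2 were higher and 2 lower, beside 29.2% and 18.3%. The cytoplasm factors of that set were assumed, since the digits do not settle them. With 1/2 assumed for the WT cytoplasm, 0 were higher and 6 lower, beside 15.7% and 44.4%. With 10 genes, all of these counts lie within about 2 genes of the shares of all kept genes.

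Directions of null minus WT were also read over other scalings of the columns, by column totals, by quantiles and by the digit factors. The digit factors of the cytoplasms were assumed and not read. With the values as rescaled and as deposited there were 5 distinct scalings in each compartment. The second set of digit factors repeats another scaling there. Rn45s and Fbl were positive in 5 of 5 in both compartments. Rn45s lay between 0.07 and 2.14 in the nucleus, past 2-fold in 2 of 5, and between 0.09 and 1.49 in the cytoplasm, past 2-fold in 3 of 5. Fbl was past 2-fold in 4 of 5 in each, and its lowest values were 0.46 for the nuclei and 0.37 for the cytoplasms. Polr1b was positive in 5 of 5 in the nucleus (0.998 to 2.65) and in 3 of 5 in the cytoplasm. Nop56 and Dkc1 were at least 2-fold lower in the null cytoplasm in 5 of 5, Nop56 between -2.58 and -1.40 and Dkc1 between -2.66 and -1.52. Nop58, Ncl, Nhp2 and Polr1a were also below 0 in the cytoplasm in 5 of 5, but past 2-fold in 1 of 5 for Nop58 and Ncl and in 2 of 5 for Nhp2 and Polr1a. In the nucleus Nop56, Nop58, Ncl, Npm1 and Polr1a were positive in 1 of 5, as deposited, and negative in the rest. Dkc1 was below 0 there in 5 of 5 (-2.07 to -0.07), past 2-fold in 3 of 5, and Nhp2 was positive in 2 of 5. Npm1 was positive in the cytoplasm in 4 of 5.

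**Figure D2:**
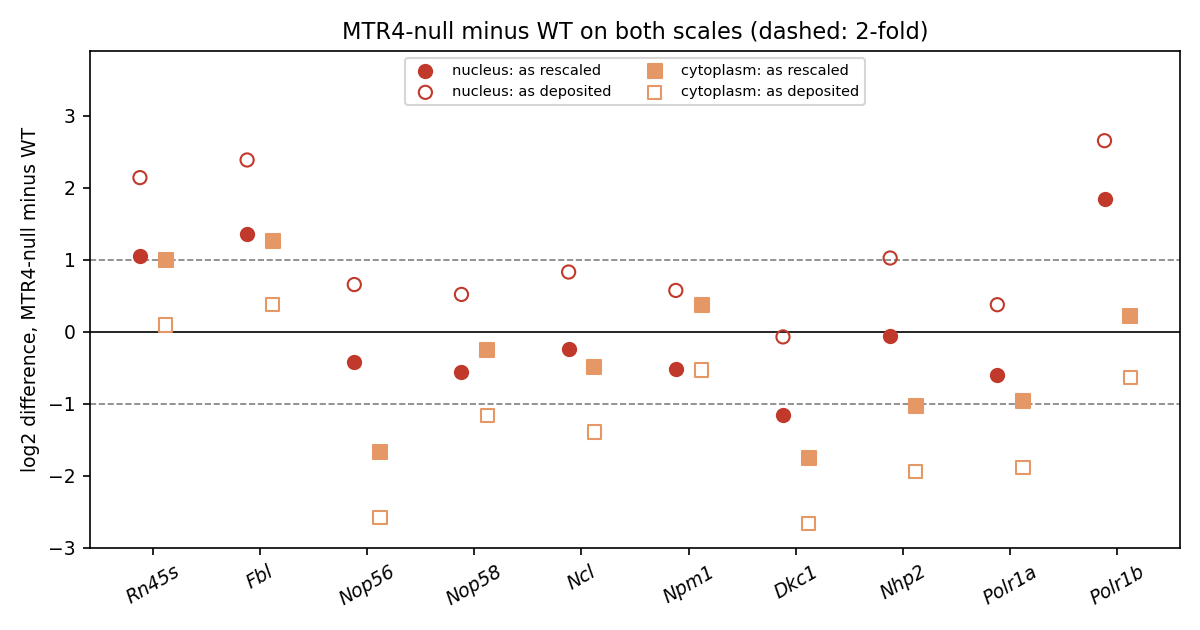
The log2 difference, MTR4-null minus WT, of each member in the nucleus (circles) and cytoplasm (squares), filled as rescaled and open as deposited, with dashed lines at 2-fold. Rn45s, Fbl and Polr1b lie at or above 1.05 in the nucleus as rescaled, and Nop56 and Dkc1 lie at or below -1.67 in the cytoplasm on both scales.

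Ratios between partner genes within a column remove any factor that a column's values share. The 6 pairs below were chosen by shared particle or class after the values had been seen, so they describe the same measurements. The ratio of Fbl to Nop56 was 0.978 in the null nucleus against 0.282 in the WT nucleus, with 1.15 in the null cytoplasm against 0.148 in the WT cytoplasm. That is 3.47-fold higher in the null nucleus and 7.77-fold higher in the null cytoplasm. For Fbl over Nop58 the ratio was 1.65 in the null nucleus against 0.434 in the WT nucleus, with 1.21 in the null cytoplasm against 0.414 in the WT cytoplasm. Nop56 over Nop58 was 1.69 against 1.54 between the null and WT nuclei, a near match, but 1.05 against 2.80 between the null and WT cytoplasms. The 3 box C/D genes therefore stood in a different proportion in each genotype.

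Dkc1 over Nhp2 was 0.573 in the null nucleus against 1.24 in the WT nucleus, with 0.358 in the null cytoplasm against 0.595 in the WT cytoplasm. Npm1 over Ncl was 7.88 in the null nucleus against 9.51 in the WT nucleus, with 14.3 in the null cytoplasm against 7.87 in the WT cytoplasm. The widest nuclear gap was in Polr1b over Polr1a, at 3.85 in the null nucleus against 0.642 in the WT nucleus, a 5.99-fold gap, with 1.42 in the null cytoplasm against 0.571 in the WT cytoplasm. Polr1b thus had the higher value of the pair in both null columns and the lower one in both WT columns.

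**Figure D3:**
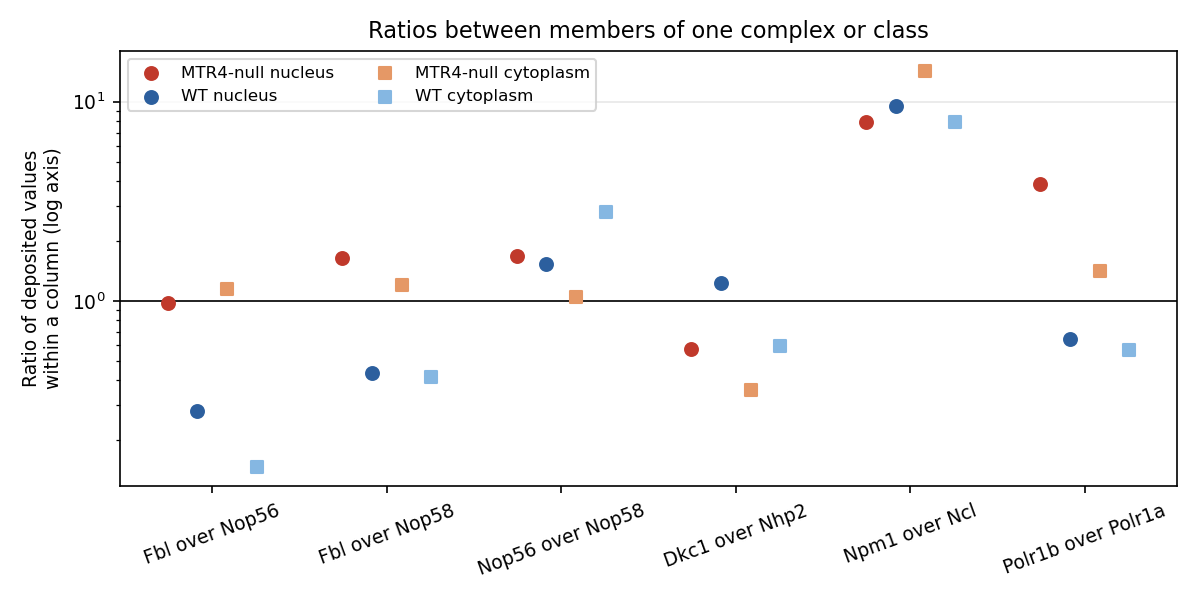
Ratio of deposited values between 2 members within each column (log axis), 1 point per column, for 6 pairs. Fbl over Nop56, Fbl over Nop58 and Polr1b over Polr1a are higher in both MTR4-null columns than in both WT columns, the last at 3.85 and 1.42 in null against 0.642 and 0.571 in WT.

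Nucleus and cytoplasm were also compared within each genotype, from the same 4 columns as above. In the null oocytes Polr1b was the member with the highest relative nucleus minus cytoplasm difference, 2.01, and the 1 member with a higher deposited value in the nucleus (22.9 against 16.3 in the cytoplasm). Dkc1 followed at 1.02 relative to the median gene, but with 69.6 in the null nucleus against 106 in the null cytoplasm its deposited difference was -0.59. Npm1 lay at the other end with -0.89, or -2.52 as deposited, and the other 7 lay between -0.17 and 0.61. In WT all 10 members lay within 2-fold of the median gene, from -0.73 (Nop56) to 0.44 (Rn45s and Dkc1), while as deposited all 10 were lower in the nucleus, from -4.34 to -2.82. In null 2 of 10 were thus higher in the nucleus and 0 lower, beside 12.4% and 8.83% of all kept genes (0 and 7 of 10 as deposited, beside 2.91% and 71.9%). In WT 0 were higher and 0 lower, beside 9.73% and 7.46% (0 and 10 of 10 as deposited, beside 1.74% and 91.2%). Member medians were 0.42 in null and 0.17 in WT, against -0.01 and -0.10 for all kept genes.

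For Rn45s the relative nucleus minus cytoplasm difference was 0.48 in null and 0.44 in WT, within 2-fold. Over the scalings it ran from -1.17 to 0.48 in null, where it was positive in 1 of 4 distinct ones, and from -3.20 to 0.44 in WT, so that its side is not settled by these values. The nucleus minus cytoplasm difference in null less that in WT was at least 2-fold higher for Polr1b (1.62) and Nop56 (1.24), and for no member lower, beside 16.9% higher and 15.3% lower of all kept genes. As deposited 10 were higher and 0 lower, beside 71.7% and 3.32%. With the digit factors, assumed for the cytoplasms, 0 were higher and 2 lower, beside 5.51% and 45.3%. With 1/2 assumed for the WT cytoplasm, 2 were higher and 0 lower, beside 19.2% and 17.5%. On the relative scale this difference was 0.05 for Rn45s, 0.08 for Fbl, 0.97 for Nhp2 and -0.89 for Npm1. The member median was 0.30 against 0.07 for all kept genes. Polr1b and Nop56 were positive in 6 of 6 scalings, with lowest values of 0.67 and 0.25. For Rn45s the sign changed with the scaling, from -1.42 to 2.05.

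**Figure D4:**
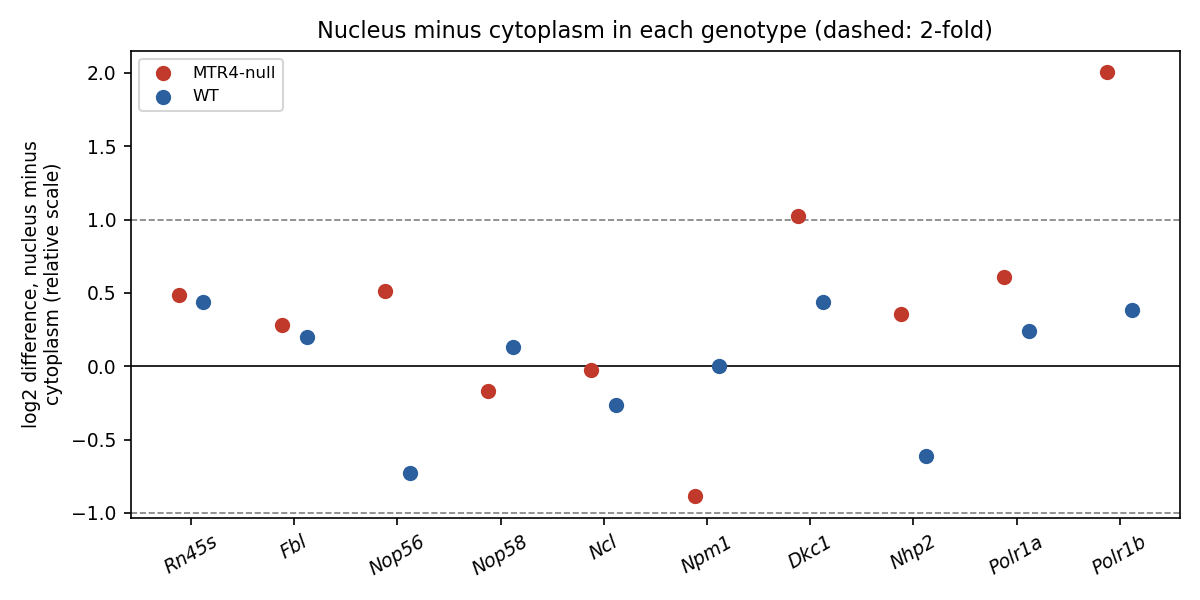
Relative log2 difference, nucleus minus cytoplasm, of each member in MTR4-null and WT oocytes, with dashed lines at 2-fold. Polr1b (2.01 in null, 0.38 in WT) and Nop56 (0.51 in null, -0.73 in WT) show the widest positive gaps between genotypes, and Npm1 (-0.89 in null, 0.0045 in WT) the widest negative one.

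Several members are host genes: their introns carry snoRNAs that are cut out of the spliced transcript. In the GENCODE annotation of mouse build GRCm38 (release M21), 13 snoRNA genes lie within Nop56 (5), Nop58 (4), Ncl (3) and Dkc1 (1), and 12 of them lie outside the exons of coding transcripts. Of these 13, 6 are listed by symbol in the table, whose own build is mm9, and 4 have a value above 0 in some column. These 4 are printed because each lies in an intron of a member and is read below beside that member's own value, with the box D motif CTGA, the box C motif TGATGA where present, and the ACA box in capitals (GRCm38, 5′ to 3′).
Snord57 (intron of Nop56, box C/D, chr2:130278016-130278087, plus strand): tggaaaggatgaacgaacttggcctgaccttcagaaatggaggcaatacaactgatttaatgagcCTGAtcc
Snord11 (intron of Nop58, box C/D, chr1:59704790-59704873, plus strand): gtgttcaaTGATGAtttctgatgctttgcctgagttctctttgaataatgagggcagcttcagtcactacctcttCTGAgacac
Snora75 (intron of Ncl, box H/ACA, chr1:86351169-86351301, minus strand): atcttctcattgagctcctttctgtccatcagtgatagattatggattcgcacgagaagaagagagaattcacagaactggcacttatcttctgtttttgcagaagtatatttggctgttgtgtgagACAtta
Snord82 (intron of Ncl, box C/D, chr1:86356261-86356330, minus strand): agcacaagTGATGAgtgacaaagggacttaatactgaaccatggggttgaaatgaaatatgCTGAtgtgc

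Values of the hosted snoRNAs were set beside those of their hosts. Snora75 had 5494 in the null nucleus against 3243 in the WT nucleus, a relative log2 difference of -0.33, close to that of its host Ncl (-0.25). In the cytoplasm Snora75 had 558 in null and was listed at 0 in WT, while Ncl had the lower value in null. Snord82, from the same host, had 748 in the null nucleus against 1597 in the WT nucleus, a relative difference of -2.19, and was listed at 0 in both cytoplasms. Both RNAs lie in introns of 1 gene, and only Snord82 passed 2-fold in the nucleus. Snord11 had 1111.5 in the null nucleus against 1011 in the WT nucleus (relative -0.96) and was listed at 0 in both cytoplasms, beside -0.56 in the nucleus for its host Nop58. Snord57 was listed at 0 in both null columns and in the WT nucleus and at 5046 in the WT cytoplasm. Snord70 in Nop58 and Snord110 in Nop56 were listed at 0 in all columns. Such RNAs normally lack a poly(A) tail and are short for this method, so that these values cover RNA captured as polyadenylated and a listed 0 can be a failed estimate.

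The 3 members past the 2-fold limit in the null cytoplasm as rescaled and as deposited, Nop56, Dkc1 and Nhp2 (Nhp2 within 2-fold on the other scalings), are shown with their promoters, from 250 bases before the gene's start, in lower case, to 50 bases after it, in capitals (RefSeq, GRCm38.p6).
Nop56 (chr2:130274162-130274461, plus strand): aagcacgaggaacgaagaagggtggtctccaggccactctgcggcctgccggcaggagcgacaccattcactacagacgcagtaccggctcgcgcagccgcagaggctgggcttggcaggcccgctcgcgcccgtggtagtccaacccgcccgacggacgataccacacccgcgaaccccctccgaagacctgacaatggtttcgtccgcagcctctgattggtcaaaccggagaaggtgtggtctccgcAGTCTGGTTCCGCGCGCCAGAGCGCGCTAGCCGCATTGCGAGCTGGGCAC
Dkc1 (chrX:75095604-75095903, plus strand): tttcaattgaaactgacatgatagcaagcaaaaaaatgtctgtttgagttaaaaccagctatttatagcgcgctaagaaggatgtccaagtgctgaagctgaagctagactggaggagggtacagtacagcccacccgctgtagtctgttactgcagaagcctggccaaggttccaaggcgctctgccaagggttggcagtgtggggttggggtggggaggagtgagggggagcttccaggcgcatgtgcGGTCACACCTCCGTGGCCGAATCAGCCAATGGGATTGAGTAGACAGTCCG
Nhp2 (chr11:51619523-51619822, plus strand): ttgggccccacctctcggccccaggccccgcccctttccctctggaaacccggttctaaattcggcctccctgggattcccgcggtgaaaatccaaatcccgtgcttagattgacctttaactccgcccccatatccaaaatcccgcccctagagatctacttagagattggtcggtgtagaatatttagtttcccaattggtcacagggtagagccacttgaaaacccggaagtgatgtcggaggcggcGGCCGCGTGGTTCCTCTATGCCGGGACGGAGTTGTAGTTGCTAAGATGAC

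Promoters of 7 members matched by symbol, those of Nop56, Nop58, Ncl, Dkc1, Nhp2, Polr1a and Polr1b. Both strands were searched. The E-box CACGTG was in 0 of the 7, against 7.15% of 32851 promoters of the same length. The motif TATAAA was in 1, at base -189 of Dkc1 on the opposite strand, against 13.6% of all. CCGGAA, a motif chosen after the sequences had been seen, was in 2, Nop58 (bases -126 and -97) and Nhp2 (base -23), against 14.9% of all. The 3 promoters printed share none of these motifs. Their GC content was 66% for Nop56, 53% for Dkc1 and 55.3% for Nhp2, against a median of 52.7% over all promoters.

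The other genes of ribosome production were read from 7 lists by role. Without the members they hold 161 genes of the table, 160 of them kept. In the nucleus 37 (23.1%) were higher in null by 2-fold or more and 22 (13.8%) lower, with a relative median of -0.08. In the cytoplasm 32 were higher and 39 (24.4%) lower, with a median of -0.22. As deposited the counts were 76 higher and 1 lower in the nucleus and 17 and 87 in the cytoplasm. The 1 lower in the nucleus was the targeted gene Skiv2l2, which these lists include. It is also among the lower genes of both compartments on the relative scale. All kept genes had 25.8% higher and 16.2% lower in the nucleus, then 24.2% and 18.6% in the cytoplasm, on the relative scale. As deposited all kept genes had 46.3% higher and 3.69% lower in the nucleus, then 14.9% and 43.7% in the cytoplasm. The counts of each list below are to be read beside these shares.

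Of the 17 other genes for RNA polymerase I transcription, 8 were higher and 3 lower in the null nucleus. All kept genes had 25.8% and 16.2% there. In the cytoplasm 7 were higher and 5 lower, beside 24.2% and 18.6%. As deposited 9 were higher and 0 lower in the nucleus, beside 46.3% and 3.69%. The deposited cytoplasm counts were 3 and 8, beside 14.9% and 43.7%. Ubtf, the factor that coats active ribosomal DNA, had 43.1 in the null nucleus against 3.75 in the WT nucleus (relative 2.35). Taf1c, a subunit of the promoter selectivity factor, had 17.6 against 0.675 there (3.16), while Taf1b of the same factor had 22.9 in the null nucleus against 32.6 in the WT nucleus (-1.58). Taf1b had 82.8 in the null cytoplasm against 531 in the WT cytoplasm (-1.75). Ttf1, the terminator protein, had 112 in the null cytoplasm against 8.46 in the WT cytoplasm (4.17), and the shared polymerase subunit Polr2l had 8887 against 2712 (2.62). The shared subunit Polr2e had 322 in the null cytoplasm against 1950.0 in the WT cytoplasm (-1.68), and Polr2k had 269 in the null nucleus against 377 in the WT nucleus (-1.58). On the relative scale Polr1b thus had company in 8 of these 17 genes in the nucleus, Taf1c and Ubtf being the highest. The other way went 3 genes, Taf1b and Polr2k being the lowest.

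Of the 9 other genes for box C/D particles and their assembly, 2 were higher and 1 lower in the null nucleus, and 1 was higher and 3 lower in the null cytoplasm (3 and 0, then 0 and 7, as deposited). The assembly factor Znhit3 was higher in both, with 97.7 in the null nucleus against 20.5 in the WT nucleus (1.15), then 633 in the null cytoplasm against 374 in the WT cytoplasm (1.66). Nufip1, which helps load the core proteins, had 36.3 in the null nucleus against 7.07 in the WT nucleus (1.24). Ruvbl2, an ATPase of the assembly machinery, was lower in both, with 92.4 against 97.6 in the null and WT nuclei (-1.17) and 232 against 1736 in the null and WT cytoplasms (-1.99). Pih1d1, its partner, had 69.0 in the null cytoplasm against 372 in the WT cytoplasm. Of the 6 other box H/ACA genes, 0 were higher and 1 lower in the nucleus, and 1 was higher and 0 lower in the cytoplasm (3 and 0, then 1 and 1, as deposited). Gar1, a core protein beside Dkc1 and Nhp2, had 16.8 in the null nucleus against 19.9 in the WT nucleus (-1.30). In the cytoplasm Gar1 and Nop10, of the same list, lay at 0.57 and 0.40 (-0.32 and -0.51 as deposited). Their relative signs there were opposite to those of Dkc1 and Nhp2. The assembly factor Naf1 had 24.7 in the null cytoplasm against 11.2 in the WT cytoplasm (1.76).

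Of the 13 other nucleoplasmin family and abundant nucleolar protein genes, 3 were higher and 1 lower in the nucleus, and 2 were higher and 3 lower in the cytoplasm (8 and 0, then 0 and 7, as deposited). Npm3, a paralog of Npm1, had 10.5 in the null nucleus against 1.18 in the WT nucleus (1.83), with 31.0 in the null cytoplasm against 17.7 in the WT cytoplasm (1.54). Gltscr2, also called Nop53, which recruits MTR4 to the large subunit precursor, had 61.2 in the null nucleus against 8.62 in the WT nucleus (1.70). Mybbp1a, a repressor of ribosomal DNA transcription, had 62.4 in the null cytoplasm against 47.6 in the WT cytoplasm (1.24). Rrp1 was lower in both, with 11.8 in the null nucleus against 12.4 in the WT nucleus (-1.13), then 33.3 in the null cytoplasm against 214 in the WT cytoplasm (-1.72). Mki67, which coats mitotic chromosomes, had 19.5 in the null cytoplasm against 94.1 in the WT cytoplasm (-1.29).

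The small subunit processome, the assembly on the 18S part of the precursor, had 52 kept genes, of which 9 were higher and 8 lower in the nucleus and 7 higher and 11 lower in the cytoplasm. As deposited there were 23 higher and 0 lower in the nucleus, then 3 and 29 in the cytoplasm. Nol11 was higher in both, with 13.9 in the null nucleus against 1.01 in the WT nucleus (2.41), then 49.3 in the null cytoplasm against 20.7 in the WT cytoplasm (1.99). Pdcd11 had 10.5 in the null nucleus against 1.03 in the WT nucleus (1.99), and Mphosph10 had 22.7 against 37.3 (-1.78). Pno1 had 34.9 in the null nucleus against 47.1 in the WT nucleus (-1.51). Esf1 had 118 in the null cytoplasm against 17.8 in the WT cytoplasm (3.40). Imp4, a partner of the U3 snoRNA, had 201 in the null cytoplasm against 1555 in the WT cytoplasm (-2.04), and Noc4l had 368 against 2625 (-1.92).

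For the large subunit, 10 of 45 kept genes other than Ncl were higher and 4 lower in the nucleus, and 10 were higher and 12 lower in the cytoplasm (23 and 0, then 6 and 24, as deposited). Nip7 had the widest gap, with 13610 in the null cytoplasm against 366 in the WT cytoplasm (6.11), followed by Rrs1, which helps bring in the 5S particle, with 111 against 9.86 (3.99). Gnl2, a nucleolar GTPase, had 90.8 in the null cytoplasm against 725 in the WT cytoplasm (-2.07), and the helicase gene Ddx56 had 66.4 against 508 (-2.00). In the nucleus Mak16 had 20.4 in null against 0.558 in WT (3.56) and Nop2, a 28S rRNA methyltransferase, 29.9 in null against 1.63 in WT (2.91). Pak1ip1 had 146 in the null nucleus against 179 in the WT nucleus (-1.38), and Wdr12 was also lower there (-1.12).

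The trimming list, with the exosome, MTR4 and their partners, had 22 kept genes. Of these, 6 were higher and 5 lower in the nucleus and 4 higher and 5 lower in the cytoplasm (8 and 1, then 4 and 13, as deposited). The targeted gene Skiv2l2 is 1 of the 5 lower in each compartment, and the 1 lower in the nucleus as deposited. Its decrease is given by the genotype. Exosc6, an exosome ring subunit, was higher in both, with 42.2 in the null nucleus against 3.76 in the WT nucleus (2.31), then 180 in the null cytoplasm against 30.9 in the WT cytoplasm (3.31). Exosc2, an RNA-binding cap subunit, had 4884 in the null cytoplasm against 178 in the WT cytoplasm (5.66). Exosc10, the nuclear exonuclease of the complex, had 51.8 in the null cytoplasm against 432 in the WT cytoplasm (-2.12). Isg20l2, an exonuclease of 5.8S maturation, had 7.44 in the null nucleus against 0.207 in the WT nucleus (2.95), and the poly(A) polymerase gene Papd7 had 80.0 against 97.9 (-1.38).

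**Figure D5:**
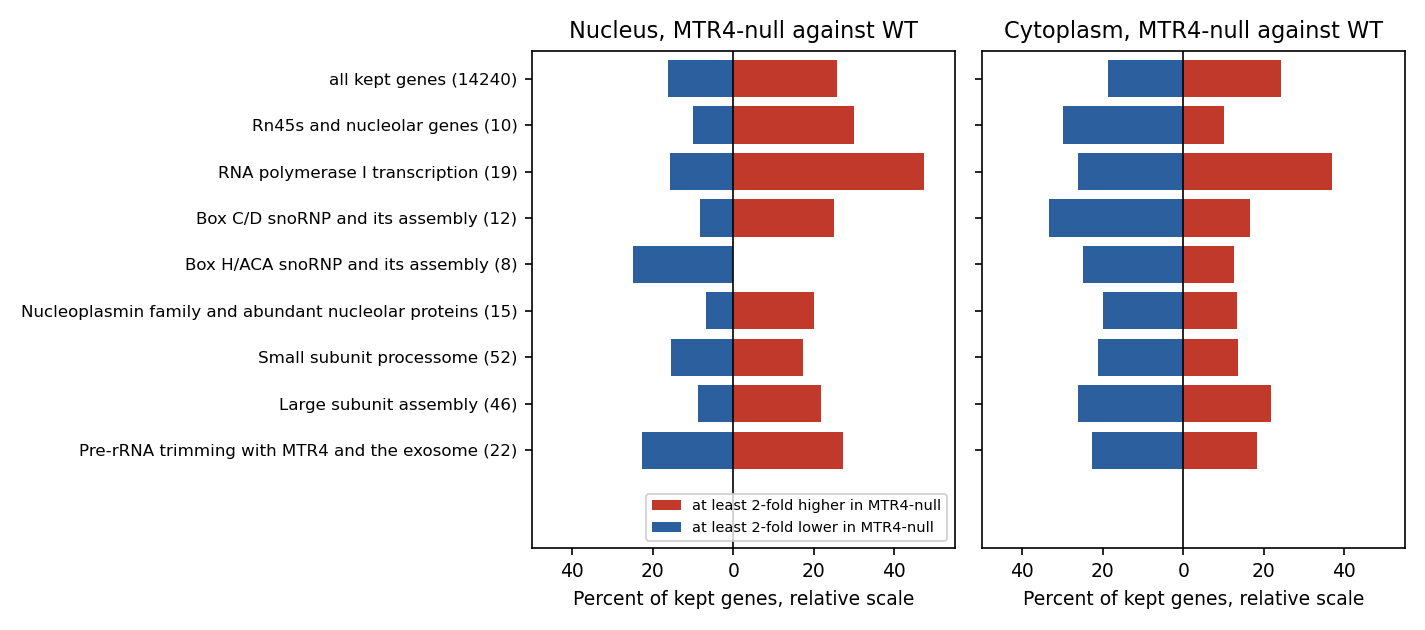
Percent of kept genes at least 2-fold higher (red, to the right) or lower (blue, to the left) in MTR4-null than in WT on the relative scale, in the nucleus and the cytoplasm, for all kept genes, the 10 members and 7 lists that include the members they hold, with the number of kept genes in brackets. The RNA polymerase I list has the longest red bars, 9 of 19 genes in the nucleus and 7 of 19 in the cytoplasm, beside 25.8% and 24.2% of all kept genes. As deposited, which is not drawn, 10 of 19 and 3 of 19 were higher, beside 46.3% and 14.9%.

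The RNA parts of a pair of precursor-cutting enzymes had far higher values in both null columns. Of the other ribosomal and rRNA-processing RNA entries, 4 were in the table and 2 were kept. Rmrp, the RNA of RNase MRP, which cuts the rRNA precursor in its internal spacer, had 205 in the null nucleus against 1.85 in the WT nucleus (relative 5.50) and 383 in the null cytoplasm against 4.17 in the WT cytoplasm (6.56). Rpph1, the RNA of RNase P, which trims transfer RNA precursors, had 167 in the null nucleus against 2.63 in the WT nucleus (4.75), with 161 in the null cytoplasm against 4.40 in the WT cytoplasm (5.28). These RNAs, too, normally lack a poly(A) tail. Rn45s, the polymerase I product, had 1.05 and 0.997 on the same scale. Rnu73b, a box H/ACA snoRNA entry, had 1686 in the null nucleus and was listed at 0 in the other columns, and Rn4.5s was listed at 0 in all.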

How the data were processed

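Polyadenylated RNA of 13 mouse oocyte libraries was sequenced by the authors. The deposited table gives 4 columns, 1 per genotype and compartment, with no column for a single library. Per the submitters' processing notes, TopHat2 2.1.1, Cufflinks 2.2.1 and build mm9 were used, with settings not given in the sources used here. The authors' values are FPKM by name but were handled as a score, since totals span 11.2-fold. In the deposited digits, 87.6% of WT nucleus values read as means of 2 after removal of a factor of 1/8, against 23.5% without. For the null nucleus it was 97.6% after 1/2, against 74.6%. The WT nucleus share was 56.4% at 1/4 and still rose at 1/8, the smallest factor tried, so that no peak was seen. The null nucleus share fell to 82.9% at 1/4. Values in a middle range were read, 3678 for the WT nucleus and 5824 for the null nucleus. A value from a single library passes this check too. The digits set no factor for the cytoplasms. There 100% of null cytoplasm values and 99.9% of WT cytoplasm values read so both at 1 and at 1/2. A factor of 1/2 for the null cytoplasm and of 1 for the WT cytoplasm was assumed, with 1/2 for the WT cytoplasm as a second set. The way of averaging was also not given in the sources used here, and the null cytoplasm column may hold a single library. Read depth is unknown.

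Genes with at least 1 in at least 2 columns were kept. Columns were divided by their median ratio to the geometric mean column over 13328 genes above 0 in all columns (0.594 for the null nucleus, 0.279 for the WT nucleus, 1.85 for the null cytoplasm and 3.47 for the WT cytoplasm), 1 was added and log2 taken, in Python 3.11.15 with numpy 2.4.6 and pandas 2.3.3. The rescaling was tested on simulated data in which few genes changed, as many up as down, in a single column. Far more genes differ here, so that test does not show that the rescaling holds for these columns. No test was possible. The members, lists and markers were chosen with earlier results of these data known. The text names all members and, per list and comparison, at most the 2 highest and 2 lowest genes past 2-fold. Gar1 and Nop10, within 2-fold in the cytoplasm, were added to these. Alternatives were other scalings, added values, filters and leaving out each member. Promoters came from RefSeq and snoRNA sequences and loci from GENCODE M21, both on GRCm38, so no coordinate comes from the table.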

Additional observations from a re-analysis of the deposited data

How the results depend on the processing

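The sizes of the member medians rest on the scaling of the columns, and so do their signs, except for null minus WT cytoplasm, which stayed negative. With columns divided by their totals, the median was -0.11 for null nucleus minus cytoplasm, against 0.42 as rescaled. For the nuclear difference in null minus WT it was -0.04 by totals, against 0.30 as rescaled. With values as deposited the medians were 0.74 (null minus WT nucleus), -1.28 (null minus WT cytoplasm), -1.21 (null nucleus minus cytoplasm), -3.41 (WT nucleus minus cytoplasm) and 2.24 (nuclear difference in null minus WT). With digit factors divided out, they were -1.24 for null minus WT nucleus, -1.21 for null nucleus minus cytoplasm, -0.47 for WT nucleus minus cytoplasm and -0.64 for the nuclear difference. Assuming 1/2 for the WT cytoplasm gave -1.28 for null minus WT cytoplasm, -1.46 for WT nucleus minus cytoplasm, and again -1.24 and -1.21 for the first pair. Of these values with digit factors, only that for null minus WT nucleus is free of an assumed cytoplasm factor. The null nucleus minus cytoplasm difference of Dkc1 changed sign, to -0.59 as deposited and -0.60 with either set of digit factors. These shifts follow from the factors themselves, which move all genes of a column alike. Leaving out each member in turn moved the medians little: -0.43 to -0.25 for null minus WT nucleus, -0.49 to -0.26 for null minus WT cytoplasm, 0.36 to 0.48 for null nucleus minus cytoplasm, 0.13 to 0.20 for WT nucleus minus cytoplasm and 0.24 to 0.37 for the nuclear difference. Of 450 values of single members under an alternative, 318 moved by less than 1.5-fold, 129 moved further and 3 were those of Dkc1 above. The sign changed in 55 of the 129, among them Nop56, Nop58, Ncl and Npm1 in null minus WT nucleus as deposited, and in 15 of the 318. With the 10 highest genes left out of the totals, Rn45s took 1.05% of the null nucleus against 0.564% of the WT nucleus, then 1.01% of the null cytoplasm against 0.434% of the WT cytoplasm. No paired analysis was possible because the columns carry no replicate numbers.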

Other observations

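The kept genes whose pattern over the 4 columns lay nearest to that of Rn45s were Bcl11b, C430002E04Rik and Spib, at Euclidean distances of 0.057, 0.077 and 0.085 between centred relative log2 values, out of 14239 genes. All 3 had low deposited values, such as 1.26 in the null nucleus against 0.141 in the WT nucleus for Bcl11b. Bcl11b and Spib reached 1 only in the null columns, so they passed the filter through the columns where they are high. At such values the added 1 understates a difference, and the distances from Rn45s depend on it. In all, 37 genes lay within a distance of 0.2. Among the members Fbl lay nearest to Rn45s, at 0.36, and the others from 1.08 (Polr1b) to 2.51 (Dkc1). With 4 columns, nearness of this kind is a description only.

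Nop56, Dkc1 and Nhp2 each have a neighbour whose 3′ end overlaps theirs on the opposite strand in GENCODE M21: Idh3b by 5 bases at Nop56, Mpp1 by 45 bases at Dkc1 and Rmnd5b by 44 bases at Nhp2. Smart-seq2 does not keep the strand, so reads in these short overlaps cannot be assigned. Idh3b had 23.5 in the null nucleus against 14.8 in the WT nucleus, with 81.6 in the null cytoplasm against 210 in the WT cytoplasm. Mpp1 had 3.40 against 2.70 between the null and WT nuclei and 15.5 against 46.0 between the null and WT cytoplasms. Rmnd5b had 23.1 in the null nucleus against 6.69 in the WT nucleus, with 64.4 in the null cytoplasm against 146 in the WT cytoplasm. Whether other members have such a neighbour was read from the same annotation, and none of the rest with a locus there overlapped another protein-coding gene. Polr1a has an antisense gene, Gm26628, across part of its exons, which was not analysed here.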
